A study of Mus musculus with 6 samples.

Results

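The immunoglobulin light chain segments are the variable (V), joining (J) and constant (C) gene segments of the kappa locus on mouse chromosome 6 and of the lambda locus on mouse chromosome 16. They were taken by symbol, as the genes of the expression table whose names begin Igkv, Igkj, Igkc, Iglv, Iglj or Iglc, with a mean normalized count of at least 1 over 6 spleen libraries. The names matched 142 of 26452 genes, and 130 reached that level: 113 Igkv, 5 Igkj, Igkc, 3 Iglv, 4 Iglj and 4 Iglc. The 12 genes below it were all Igkv, and 15 of the 113 Igkv are annotated as pseudogenes. The members closest to the limit were Igkv9-119 at a mean of 1.07 and Igkv15-97 at 1.03, and the nearest gene outside was Igkv13-82 at 0.859.

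RNA was sequenced from whole spleens of male mice aged 10 weeks. The knockout (KO) group was Was -/- (129S6/SvEvTac-Wastm1Sbs/J) and gave libraries KO451, KO452 and KO457. The wild-type (WT) group was 129S6/SvEvTac mice, with libraries WT453, WT454 and WT455. The knockout is constitutive, so every cell type of the spleen carries the targeted allele, and all mice came from the Jackson Laboratory. The labels do not say outright that each library is a separate mouse, so p-values measure only the spread between these libraries.

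Each B cell builds its light chain gene by joining 1 V segment to 1 J segment with the RAG recombinase, and the transcript is spliced onto the constant region of the same locus. Kappa is rearranged before lambda in most developing B cells, and mouse antibodies are mostly kappa. The mouse lambda locus is small: Iglv1 is joined mainly to the Iglj1 and Iglj3 segments ahead of Iglc1 and Iglc3, and Iglv2 and Iglv3 mainly to the Iglj2 segment ahead of Iglc2. These are general facts of mouse light chains, not results of these libraries. Plasma cells, which secrete antibody, hold far more light chain RNA per cell than resting B cells, so an expanded plasma cell clone can raise the level of its own V segment in a tissue. In bulk RNA, fewer cells of a type and less RNA per cell cannot be told apart.

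The sequences that follow are the coding strand of the GENCODE M21 transcripts on GRCm38, 5′ to 3′, in lower case; all 130 members were found in that annotation. GRCm38 is a C57BL/6J genome and the mice were 129S6, whose light chain segments can differ from it, so sequences and identities are those of the reference and the effect of strain on how reads were assigned to close segments was not tested. The joining segments are shown because they are very short, 38 to 39 bases, which limits how many reads can be assigned to them. Capitals mark TTCGG, the letters that begin the phenylalanine-glycine motif of the J segment. On the printed strand TTCGG was present in 4 of the 5 kappa J segments, in 3 of the 4 lambda J segments and in 22.6% of the 84 J segments of all antigen receptor loci in the annotation, and on the other strand in 0 of them. Igkj3, in which it was absent, is known as a nonfunctional segment in mice.
Igkj1: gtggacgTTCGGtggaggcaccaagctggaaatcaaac
Igkj2: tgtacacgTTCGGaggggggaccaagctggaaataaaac
Igkj3: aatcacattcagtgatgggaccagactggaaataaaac
Igkj4: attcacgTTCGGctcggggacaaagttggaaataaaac
Igkj5: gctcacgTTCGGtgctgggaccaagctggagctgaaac
Iglj1: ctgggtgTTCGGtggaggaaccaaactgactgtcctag
Iglj2: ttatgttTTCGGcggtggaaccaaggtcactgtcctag
Iglj3: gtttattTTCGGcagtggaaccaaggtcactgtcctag

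The lambda constant regions are shown because a result turns on telling Iglc1 from Iglc2 and Iglc3. The stretch is bases 1 to 60 of Iglc1 and Iglc3 and bases 2 to 61 of Iglc2, and capitals mark bases that differ from Iglc1, 12 in each of Iglc2 and Iglc3. Over the whole transcript Iglc1 was 69.9% identical to Iglc2, with a longest identical run of 19 bases. Iglc2 and Iglc3 were 95.4% identical, with an identical run of 79 bases, so that the split of reads between them is less certain.
Iglc1: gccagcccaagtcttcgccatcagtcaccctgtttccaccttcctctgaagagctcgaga
Iglc2: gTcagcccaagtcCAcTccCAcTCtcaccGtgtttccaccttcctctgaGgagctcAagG
Iglc3: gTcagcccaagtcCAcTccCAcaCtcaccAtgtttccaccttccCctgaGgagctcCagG

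The last 60 bases of the lambda variable segments Iglv1 and Iglv2 are shown for the opposite reason. Capitals in Iglv2 mark its 3 differences from Iglv1. The whole segments were 96.7% identical with an identical run of 104 bases, so the authors' counting could have split reads between them.
Iglv1: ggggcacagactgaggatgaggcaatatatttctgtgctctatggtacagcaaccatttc
Iglv2: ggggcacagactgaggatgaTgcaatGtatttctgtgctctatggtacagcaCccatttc

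The last 60 bases of 4 neighbouring Igkv3 segments are shown because Igkv3-5 and Igkv3-4 were among the 3 kappa V segments with the smallest unadjusted p and the largest log2 fold changes at a mean of at least 100; Igkv4-69 was the other. Capitals mark differences from Igkv3-5. The closest relative of Igkv3-5 was not one of these neighbours but Igkv3-10, with 98.3% identity and an identical run of 159 bases.
Igkv3-5: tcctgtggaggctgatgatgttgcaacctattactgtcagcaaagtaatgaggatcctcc
Igkv3-4: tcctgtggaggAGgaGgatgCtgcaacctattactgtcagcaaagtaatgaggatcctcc
Igkv3-3: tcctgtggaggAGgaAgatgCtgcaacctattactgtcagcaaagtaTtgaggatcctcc
Igkv3-2: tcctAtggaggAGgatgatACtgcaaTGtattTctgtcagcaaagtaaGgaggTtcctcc

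Normalized counts of Was were 508, 407 and 409 in KO libraries, against 4142, 6561 and 6279 in WT libraries, so every library matched its label. Reads assigned to genes ranged from 30661759 to 38402758 per library, and the upper limit behind a count of 0, taken as 3 reads, came to 0.0781 to 0.0978 CPM (counts per 1000000 reads), which covers counting error only. WT453 stood apart from the other libraries: in it the variable segments were low against the constant regions of their own loci. Per kilobase of transcript, Igkv RNA was 127%, 98.2% and 99.8% of Igkc RNA in KO451, KO452 and KO457, against 24.3% in WT453, 115% in WT454 and 113% in WT455. Iglv RNA was 109%, 80.5% and 94.6% of Iglc RNA in the KO libraries, against 29.3% in WT453, 76.6% in WT454 and 81.4% in WT455. WT453 was the lowest for the heavy chain too: Ighv RNA was 112%, 78.7% and 102% of heavy constant RNA in the KO libraries, against 38.2% in WT453, 120% in WT454 and 137% in WT455. Heavy chain lengths were those of all exons of a gene model, while light chain lengths were those of the longest immunoglobulin transcript. Percentages of the heavy and light chains are therefore not on the same scale. WT453 was the lowest library for 76 of the 85 Igkv with a mean normalized count of at least 100, at a median of 0.1996 times the mean of the other 5 libraries. The summed neutrophil markers of that library were also the highest, at 92895 CPM, against 5333 to 57555 CPM in the other 5. What made WT453 differ was not tested, and results on V segments are therefore given with and without it.

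**Figure D1:**
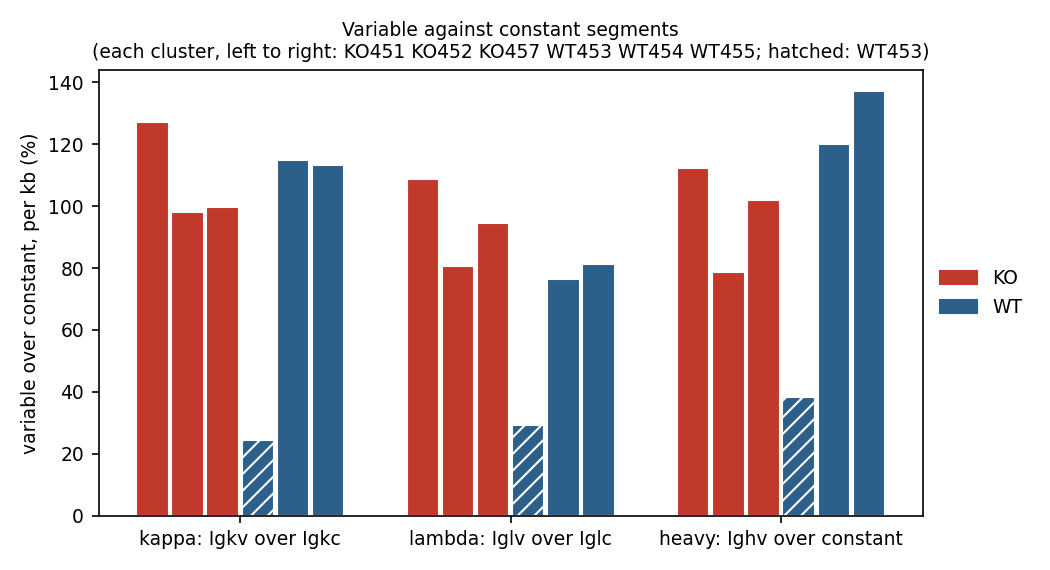
Variable over constant segment RNA in each library, per kilobase of transcript and in percent, for the kappa, lambda and heavy chain loci; each bar is 1 library, KO before WT, and WT453 is hatched. WT453 lies lowest in each locus, at 24.3% for kappa, 29.3% for lambda and 38.2% for the heavy chain. Heavy chain lengths were those of all exons of a gene model, not of 1 transcript.

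Across the light chain members, knockout and wild-type spleens were not separated by the test across all genes. The test was limma on the authors' deposited log2 values, log2(normalized count + 1), with Benjamini-Hochberg adjustment over the 22071 genes with a mean of at least 1. At an adjusted p under 0.05 it called 0 of the 130 members, and 2 of all genes tested, which is 0.00906%. At an unadjusted p under 0.05 it held 10 members, 8 higher and 2 lower in KO, beside 11% of all genes, 5.5% higher and 5.46% lower; by limma voom on the recovered reads the adjusted count was also 0 and the unadjusted count 10. The 3 KO values did not overlap the 3 WT values in 16 members, 12 higher and 4 lower in KO, beside 19.5% of all genes, 9.54% higher and 9.94% lower. The authors' deposited table held 5 members at an FDR under 0.05, or 3.85%, beside 3.58% of all its 26452 genes. Unlike the members, those genes were not filtered at a mean of 1, so the 2 shares are not on the same footing. The 5 members were Igkv3-5, Igkv4-69, Iglc1, Igkv3-4 and Igkv3-3, all higher in KO.

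The direction of the members as a whole depended on WT453. With all libraries, 85 of 130 members were higher in KO, and their median log2 fold change was 0.29. Of all genes 47.7% were higher, and the median was -0.03. Without WT453, 48 of 130 were higher, with a median of -0.43, beside 48% of all genes. Without WT453 the groups did not overlap in 42 members, 12 higher and 30 lower in KO, beside 40.3% of all genes, with 19.2% of all genes apart and higher, and 29 members had an unadjusted p under 0.05, 8 higher and 21 lower, beside 18.2% of all genes. Light chain segments also varied more between libraries of 1 group than other genes of like level. At mean counts from 1000 to 10000, the median within-group SD on the log2 scale was 1.09 for 49 members and 0.328 for 5595 other genes, and within the KO libraries alone it was 0.586 and 0.225. From 100 to 1000 it was 1.29 for 37 members and 0.418 for 5772 other genes, or 0.920 and 0.294 within KO. From 10 to 100 it was 1.20 for 22 members and 0.790 for 4169 other genes, or 0.855 and 0.599 within KO.

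Igkc, at chr6:70726435-70726966 on the plus strand, is the only constant region of the kappa locus and did not separate the groups. Its normalized counts were 279110, 227527 and 417223 in KO libraries, against 290169, 223725 and 372298 in WT libraries. The 2 ranges lay almost on top of each other, and WT453 was in the middle of them. Igkc and the Igkj segments lie within the span of Gm30211, and in all 15 members overlap another gene model. The log2 fold change was 0.04 (SE 0.34), and a two-sided exact permutation test gave p = 0.9, where the smallest p that 3 against 3 libraries allow is 0.1. The sign of so small a difference turned with the scaling, to -0.10 as CPM and -0.48 after quantile normalization. All kappa segments took 1.42%, 1.15% and 1.94% of reads in KO libraries, or 1.505 ± 0.403% (SD, n = 3), against 1.02%, 1.29% and 2.09% in WT libraries, or 1.47 ± 0.557% (SD, n = 3).

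Lambda RNA was higher in every KO library than in every WT library. All lambda segments took 0.171%, 0.177% and 0.267% of reads in KO libraries, or 0.205 ± 0.0539% (SD, n = 3), against 0.0728%, 0.148% and 0.143% in WT libraries, or 0.121 ± 0.042% (SD, n = 3). The lowest KO share was above the highest WT share, and the ratio of the means was 1.69, or 1.41 without WT453. Constant region RNA alone did overlap. Per kilobase, Iglc RNA came to 13.8%, 18.0% and 15.1% of Igkc RNA in KO libraries, against 7.76%, 14.6% and 8.43% in WT libraries, where WT454 lay above KO451. Per kilobase, Iglv RNA came to 11.8%, 14.7% and 14.3% of Igkv RNA in KO libraries, against 9.36%, 9.74% and 6.06% in WT libraries, with no overlap.

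Of the lambda constant regions, the one without overlap between groups was Iglc1, at chr16:19061618-19062071 on the minus strand, which makes the lambda 1 chain. Its normalized counts were 19240.1, 17221 and 24869 in KO libraries, against 6226, 9260.4 and 9400.3 in WT libraries. Every KO library was above every WT library, including WT454 and WT455, whose V segments were not low. The log2 fold change was 1.31 (SE 0.25), with an unadjusted p of 0.00107 and an adjusted p of 0.344 by limma, so it missed the threshold, while the authors' deposited table gave it an FDR of 7.46e-05. Without WT453 the log2 fold change was 1.11, and leaving out each library in turn gave 1.11 to 1.42. Iglc1, Iglc3, Iglv1, Iglj1, Iglj3 and Iglj3p overlap 2010309G21Rik, a gene model on the opposite strand, and no source used here gives the counting strand, so reads of the pair cannot be told apart.

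The other lambda constant regions overlapped between groups. Iglc2, of the lambda 2 chain, had 10501 and 12433 normalized counts in KO451 and KO452 and 23301 in KO457, against 9525, 12266 and 11349 in WT libraries. KO452 and KO457 lay above the WT range, KO452 by little, and KO451 lay inside it. The log2 fold change was 0.40 (SE 0.32). Iglc3, of the lambda 3 chain, had 3113, 5296 and 5597 normalized counts in KO libraries, against 3527, 6467 and 6060.1 in WT libraries, a log2 fold change of -0.19 (SE 0.33) that changed sign without KO451. Iglc4, a nonfunctional constant region in mice, had 7.505, 11.0 and 13.5 normalized counts in KO libraries, against 4.12, 12.2 and 24.9 in WT libraries.

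**Figure D2:**
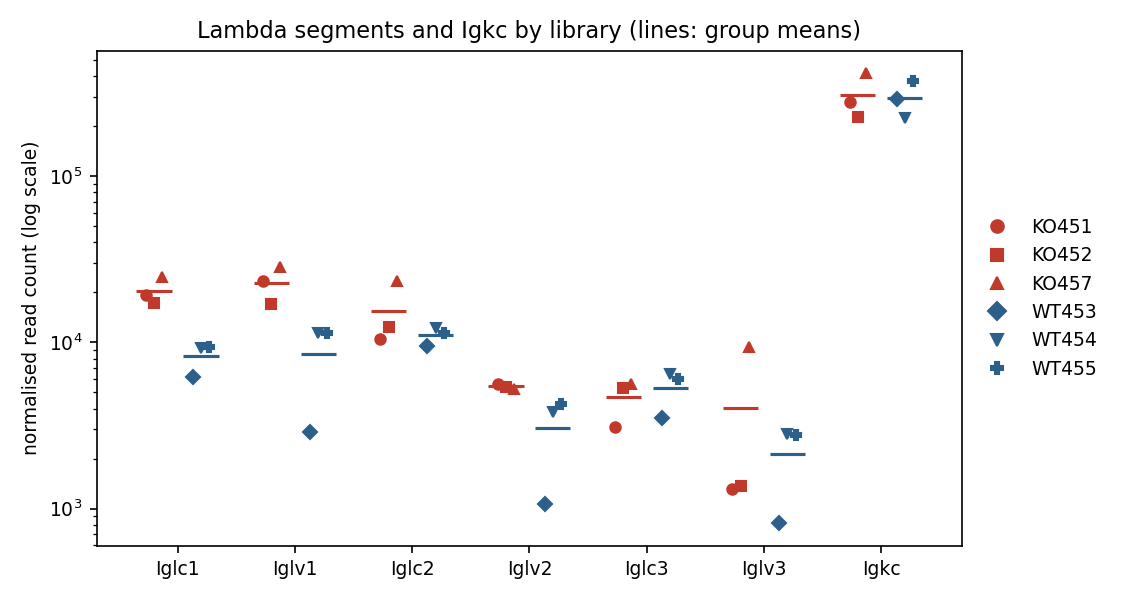
Normalized counts of the lambda segments and of Igkc in each library on a log axis, KO left of WT; each point is 1 library and each line a group mean. Iglc1 lay between 17221 and 24869 in KO libraries and between 6226 and 9400.3 in WT libraries, while Igkc overlapped.

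The makeup of the lambda constant RNA also differed in level between the groups. Per kilobase, Iglc1 was 58.7%, 49.4% and 46.4% of all Iglc RNA in KO libraries, or 51.5 ± 6.41% (SD, n = 3), against 32.4%, 33.2% and 35.1% in WT libraries, or 33.6 ± 1.40% (SD, n = 3). The WT libraries lay close together on this measure, WT453 among them, and every KO library was above them. Iglc1 RNA was 1.85, 1.40 and 1.08 times Iglc2 RNA in KO libraries, against 0.659, 0.762 and 0.836 times in WT libraries. The Iglc2 length used was the 458 bases of its immunoglobulin transcript, while its gene model holds 612 exon bases. The level of this ratio depends on that length, but the order of the libraries does not. The levels of the Iglc shares depend on it too, and the other length was not tested. Iglc3 had the lower share in KO libraries, 9.54%, 15.3% and 10.5%, against 18.4%, 23.3% and 22.7% in WT libraries. The Iglc2 share overlapped, at 31.7%, 35.3% and 43.1% in KO libraries, against 49.1%, 43.5% and 42.0% in WT libraries. Set against kappa, Iglc1 RNA was 8.08%, 8.87% and 6.98% of Igkc RNA per kilobase in KO libraries, against 2.51%, 4.85% and 2.96% in WT libraries. These shares were chosen after the values had been seen and carry no test.

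**Figure D3:**
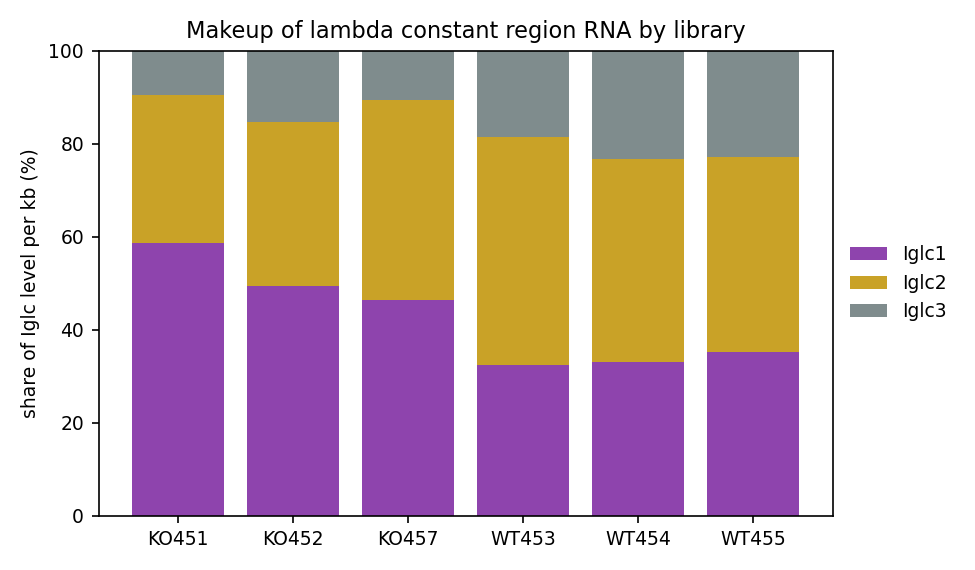
Share of each lambda constant region in all Iglc RNA, per kilobase and in percent, for each library, KO libraries before WT libraries. Iglc1 made up 46.4% to 58.7% in KO libraries and 32.4% to 35.1% in WT libraries, and Iglc3 made up 9.54% to 15.3% in KO libraries and 18.4% to 23.3% in WT libraries.

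Of the 3 lambda variable segments, Iglv1 and Iglv2 did not overlap between groups, and the difference was smaller without WT453. Iglv1, the segment of most lambda 1 and lambda 3 chains, had 23344, 17035 and 28344 normalized counts in KO libraries, against 2873 in WT453, 11458 in WT454 and 11392 in WT455. The groups did not overlap, and the log2 fold change was 1.64 (SE 0.54, unadjusted p 0.0189, adjusted p 0.373 by limma), or 0.97 without WT453. Iglv2 had 5655, 5390 and 5261 normalized counts in KO libraries, against 1065 in WT453, 3819.7 in WT454 and 4253 in WT455. Its 3 KO values lay very close together and above the WT values, with a log2 fold change of 1.07 (SE 0.50), or 0.43 without WT453. Iglv3 was set by 1 library: it had 1313 and 1364 normalized counts in KO451 and KO452 and 9454 in KO457, against 817, 2806 and 2757 in WT libraries. Its log2 fold change of 0.47 (SE 0.84) was -0.47 without KO457 and -0.12 without WT453. KO457 was also the library with the high Iglc2. Per kilobase, Iglv1 was 76.0%, 70.4% and 64.9% of Iglv RNA in KO libraries, against 59.2%, 62.2% and 60.7% in WT libraries.

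The joining segments had few reads. Iglj2 had the most, with 189.8, 269 and 341 normalized counts in KO libraries, against 140.2, 289 and 228 in WT libraries, but its model overlaps that of Iglc2. Iglj1, ahead of Iglc1, had 8.58, 17.0 and 13.5 normalized counts in KO libraries, against 2.06, 8.16 and 5.19 in WT libraries. All 3 KO values were above the WT values, with a log2 fold change of 1.28 (SE 0.65), the direction of Iglc1. Iglj3 and Iglj3p had means of at most 2.54 in either group.

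The kappa joining segments had group means between 3.46 and 15.3 normalized counts in KO libraries and between 5.21 and 25.4 in WT libraries. All 5 had negative log2 fold changes, from -0.39 for Igkj1 to -1.42 for Igkj3. Igkj3, the nonfunctional segment, had 6.43, 8 and 4.16 normalized counts in KO libraries, against 9.28, 26.9 and 21.8 in WT libraries, with no overlap and an unadjusted limma p of 0.0542 (adjusted p 0.465). All 5 were highest in WT454. J segments of spliced light chain RNA sit between V and C, and how the authors assigned reads across those joins is not stated.

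The largest positive log2 fold change among kappa variable segments with a mean of at least 100 belonged to Igkv3-5, at chr6:70663275-70663895 on the plus strand. Its normalized counts were 6106, 3681 and 4591 in KO libraries, against 361, 674 and 1074 in WT libraries. The lowest KO value was more than 3-fold the highest WT value. The log2 fold change was 2.87 (SE 0.41, unadjusted p 1.77e-04, adjusted p 0.344 by limma), 2.46 without WT453 and 2.46 to 3.25 over all libraries left out in turn, and the authors' deposited FDR was 1.73e-09. As a share of all Igkv RNA of a library, per kilobase, Igkv3-5 was 2.40%, 2.29% and 1.54% in KO libraries, against 0.713%, 0.365% and 0.355% in WT libraries.

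Its neighbour Igkv3-4, at chr6:70671788-70672377 on the plus strand, had 4129.8, 2603 and 3759 normalized counts in KO libraries, against 286, 999 and 1121 in WT libraries. Those values did not overlap either, with a log2 fold change of 2.32 (SE 0.52, unadjusted p 0.00269), or 1.70 without WT453. Igkv3-3, named after its values were seen because the authors' table called it, had 140.4, 126 and 9.35 normalized counts in KO libraries, against 5.15, 4.89 and 23.9 in WT libraries. KO457 lay inside the WT range there. Igkv3-10, the closest relative of Igkv3-5, had 827, 1192 and 2231 normalized counts in KO libraries, against 429.8, 761 and 1124 in WT libraries, with overlap. The 11 Igkv3 segments together were 7.72%, 8.996% and 7.19% of Igkv RNA in KO libraries, against 5.81%, 4.11% and 4.20% in WT libraries. That share includes Igkv3-5 and Igkv3-4. Log2 fold changes were positive in 11 of 11 Igkv3 segments, beside 85 of all 130 members. Without WT453 they were positive in 7 of 11, beside 48 of all 130 members.

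Of the other segments with large positive values, Igkv4-69 had 244, 365 and 791 normalized counts in KO libraries, against 35.0, 105 and 63.4 in WT libraries. Its groups were apart, with a log2 fold change of 2.72 (SE 0.56, unadjusted p 0.00168), or 2.32 without WT453. Igkv14-126 had 2402, 3412 and 2852 normalized counts in KO libraries, against 138 in WT453, 1122 in WT454 and 1633 in WT455; its log2 fold change of 2.17 (SE 0.85) was 1.08 without WT453. Igkv4-59 had 17513, 5053 and 5473 normalized counts in KO libraries, against 777, 2286 and 3020.2 in WT libraries, with KO451 far above the rest and a log2 fold change of 2.16 (SE 0.64), or 1.58 without WT453. Igkv4-59 was 97.5% identical to Igkv4-70, and its counts are uncertain to that extent. Igkv14-111, among the 10 most abundant, had 9700.4, 10258 and 10819 normalized counts in KO libraries, against 1667, 3873 and 7287 in WT libraries. The 3 KO values were close together and above the WT range, with a log2 fold change of 1.51 (SE 0.49), or 0.95 without WT453.

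The segments with the largest negative values were low in most libraries of both groups. Igkv12-89 had 125, 77.0 and 376 normalized counts in KO libraries, against 217, 762 and 1014 in WT libraries. KO457 lay above WT453, and the log2 fold change was -1.84 (SE 0.75, unadjusted p 0.0421 by limma), or -2.51 without WT453. By share of Igkv RNA its groups did not overlap, at 0.0556%, 0.0542% and 0.142% in KO, against 0.486%, 0.466% and 0.379% in WT. By normalized count, Igkv8-34 and Igkv8-18 were set mainly by WT455. Igkv8-34 had 13.9 to 19.7 normalized counts in KO libraries, against 13.4, 44.1 and 661 in WT libraries. By share of Igkv RNA, Igkv8-34 did not overlap, at 0.00572%, 0.00913% and 0.00691% in KO libraries, against 0.0277%, 0.0250% and 0.229% in WT libraries. The share of Igkv8-18 overlapped. Igkv8-18 had 21.4, 109 and 18.7 normalized counts in KO libraries, against 27.8, 31.0 and 637 in WT libraries. Without WT455 their log2 fold changes were -0.61 and 0.27, against -2.18 and -1.20 with it, and without WT453 they were -3.37 and -1.97. Igkv9-123 and Igkv7-33 had log2 fold changes of -1.43 (SE 0.79) and -1.18 (SE 1.05). Both overlapped through WT453 by normalized count, though not by share of Igkv RNA. Without WT453 the log2 fold changes were -2.21 and -2.44, and the counts did not overlap.

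**Figure D4:**
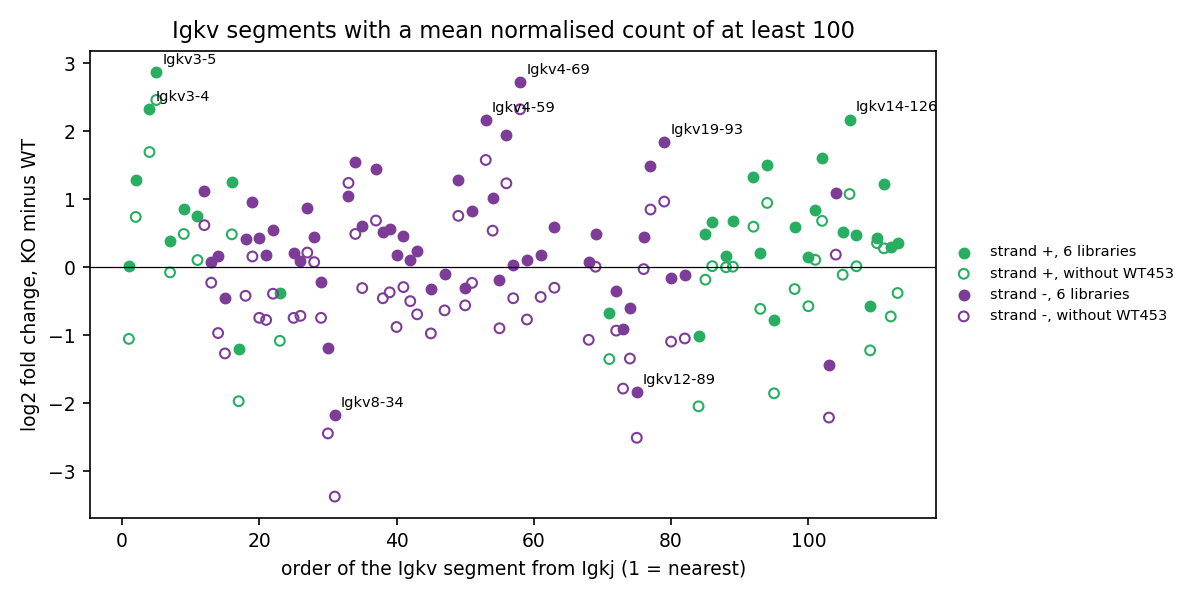
Log2 fold change (KO minus WT) of the 85 Igkv members with a mean normalized count of at least 100, by order along the locus from the Igkj segments; colours give the strand, filled points all 6 libraries and open points the fit without WT453. Igkv3-5 has the highest filled point at 2.87 and Igkv8-34 the lowest at -2.18.

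By share of Igkv RNA, no block along the locus and neither strand separated the groups without overlap. The kappa V segments were ordered from the Igkj segments outward and cut into 4 blocks of 28 or 29 segments. The nearest block, Igkv3-1 to Igkv6-32, held 21.3%, 27.7% and 24.4% of Igkv RNA in KO libraries, against 26.7%, 27.5% and 23.3% in WT libraries. The other 3 blocks overlapped as well. The third, Igkv4-69 to Igkv1-99, held 34.5%, 12.5% and 16.8% in KO libraries, against 17.6%, 18.7% and 25.9% in WT libraries. It overlapped only through KO451, where Igkv19-93 alone was 24.5% of Igkv RNA. Its log2 fold changes were positive in 12 of 28 segments, against 25 of 29, 18 of 28 and 22 of 28 in the nearest, second and farthest blocks. Without WT453 the block medians were -0.23, -0.45, -0.97 and 0.0054, from nearest to farthest. The split by strand overlapped too. Plus strand segments face the same way as the Igkj segments and join them by deletion rather than inversion. They held 36.6%, 48.7% and 42.6% in KO libraries, against 45.7%, 40.8% and 41.2% in WT libraries.

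Of 20 Igkv families, 4 did not overlap between groups in their share of Igkv RNA, Igkv3 and Igkv14 higher and Igkv13 and Igkv7 lower in KO. By normalized count 19.5% of all genes did not overlap, but that is an unlike measure and cannot serve as a background for the family count. Igkv14 was 5.45%, 9.32% and 5.89% in KO libraries, against 4.54%, 3.35% and 4.11% in WT libraries. Both higher families include segments already named above, Igkv3-5 and Igkv3-4 in Igkv3, and Igkv14-111 and Igkv14-126 in Igkv14. By share, these were the only segments of either family whose groups did not overlap. The family shares without them were not tested, so no shift across either whole family can be read from these values. Igkv13 was 0.773%, 1.05% and 1.06% in KO libraries, against 2.55%, 1.51% and 2.95% in WT libraries. Igkv7 was the single segment Igkv7-33, at 0.0164% to 0.0313% in KO libraries and 0.0362% to 0.118% in WT libraries. Igkv4, the family with the most members at 31, overlapped. By single segments, 32 of 113 shares did not overlap, 10 of them higher in KO. No like-measured background exists for the family or the segment count. The shares of a library are parts of 1 whole, so the 24.5% of Igkv19-93 in KO451 lowered every other share there.

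Igkv19-93, the Igkv with the highest mean level, was set by KO451. It had 59354 normalized counts in KO451, 4037 in KO452 and 8286 in KO457, against 1048 in WT453, 4664 in WT454 and 8860.1 in WT455. In KO451 it was 24.5% of all Igkv RNA, against 2.18% to 3.08% in the other 5 libraries. Its log2 fold change of 1.84 (SE 1.11) was 0.72 without KO451. The effective number of Igkv segments, which is the number of equally used segments that would give the same diversity, was 32.1 in KO451, 49.7 in KO452 and 49.3 in KO457, against 50.4, 51.3 and 48.5 in WT libraries. The largest share of any Igkv was 24.5%, 6.64% and 6.78% in KO libraries, against 7.31%, 7.55% and 10.3% in WT libraries. KO451 apart, the effective number stayed between 48.5 and 51.3.

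The other 7 of the 10 most abundant, beside Igkv14-111, Igkv4-59 and Igkv19-93, had overlapping groups. Igkv1-117 had 12627, 10904 and 18793 normalized counts in KO libraries, against 2569.5 in WT453, 14743 in WT454 and 19899 in WT455. Igkv10-96 had 6427, 6186 and 19037 normalized counts in KO libraries, against 2697, 12096 and 29262 in WT libraries. Igkv1-110, which is 97.5% identical to Igkv1-117, had 7897, 5203 and 8037 normalized counts in KO libraries, against 1918, 8977 and 12408 in WT libraries. Igkv5-39, Igkv8-30, Igkv1-135 and Igkv15-103 had log2 fold changes of 0.61, 0.45, 0.30 and 0.16, with SEs from 0.60 to 0.92. Each of these 7 segments changed sign when some library was left out. In 14 of the 85 Igkv with a mean of at least 100, the share in 1 library was at least 4 times the median of the others. The top library was KO451 in 3, KO452 in 2, KO457 in 4, WT454 in 2 and WT455 in 3. The median was taken over both groups, so a group difference can pass this limit too. Igkv4-59 and Igkv4-63 passed it, though their shares did not overlap between groups. No like count was made for other genes.

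**Figure D5:**
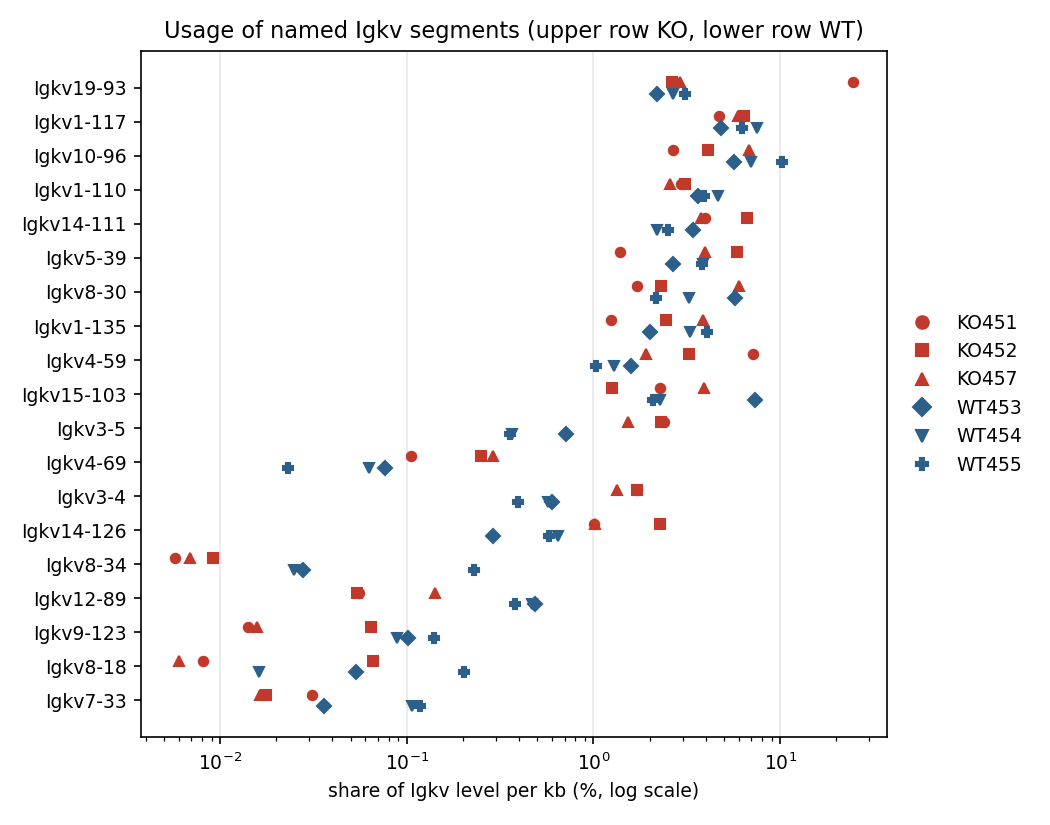
Share of Igkv RNA per kilobase, in percent, taken by 19 named Igkv segments, on a log axis; each point is 1 library, with KO above WT for each segment. Igkv19-93 takes 24.5% in KO451 and 2.18% to 3.08% in the other 5 libraries.

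Genes that go with light chain expression were read from 10 lists, with 0 genes called by limma at an adjusted p under 0.05 in any of them. Where the authors' deposited table had genes of a list below an FDR of 0.05, their number is given. Of 8 measured heavy chain constant regions, 5 were higher and 3 lower in KO, with a median log2 fold change of 0.39, or 0.65 without WT453; the authors' deposited table called 2 of them higher and 1 lower. Ighm, of IgM, was at 11658, 11826 and 10351 CPM in KO libraries, against 2255, 6539.97 and 6689 CPM in WT libraries. Its log2 fold change was 1.43 (SE 0.44) without overlap. With an FDR of 0.114 in the authors' deposited table, Ighm was not among the genes called there. Igha, of IgA, was at 2893, 1299 and 1616 CPM in KO libraries, against 8002, 6969 and 13061 CPM in WT libraries, a log2 fold change of -2.16 (SE 0.41), also without overlap, and an FDR of 6.90e-04 in the authors' deposited table. Ighg1 and Ighg2b overlapped, with log2 fold changes of 0.60 and 0.18. The 2 regions that the authors' deposited table called higher were Ighg3 and Ighe, named here for that reason. Their log2 fold changes were 1.65 and 4.02, and their deposited FDRs 7.01e-04 and 0.0172.

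The 20 plasma cell and secretion genes were split, 10 higher and 10 lower in KO, with a median of -0.02. Their sum was 2902 to 3809 CPM in KO libraries and 3333 to 3802 CPM in WT libraries, and Jchain, which links secreted IgM and IgA, had a log2 fold change of 0.18 (SE 0.26). Of 18 B cell genes 17 were lower in KO, with a median of -0.58, or -1.03 without WT453, and the authors' deposited table called 1 lower. Their sum was 3734, 8491 and 4395 CPM in KO libraries, against 4969.9, 12674 and 10419.9 CPM in WT libraries, where KO452 lay above WT453. Cd74, Cd79a, Cd79b and Ms4a1, which act in antigen presentation, receptor signalling and on the B cell surface, had log2 fold changes of -0.58, -0.53, -0.44 and -0.12. None of the B cell genes was at 0, and the part that B cell and plasma cell numbers have in the light chain values was not tested.

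Of 17 regulators of light chain genes 9 were higher and 8 lower in KO, with a median of 0.01, or -0.52 without WT453, and the 4 most abundant, Spib, Irf8, Spi1 and Pou2af1, had log2 fold changes from -0.29 to 0.01. Of 15 recombination and surrogate light chain genes 12 were higher in KO, with a median of 0.55, or 0.60 without WT453, and the authors' deposited table called 3 higher. The most abundant were Hmgb1 (0.55), Xrcc6 (0.52), Prkdc (-0.0037) and Xrcc5 (0.20), which serve DNA bending and end joining in all cells. Rag1, which cuts light chain genes, was at 10.4, 10.01 and 42.1 CPM in KO libraries, against 1.02, 3.28 and 1.53 CPM in WT libraries; it was named after its values were seen and had an FDR of 4.05e-06 in the authors' deposited table. Of 11 somatic mutation and class switch genes 10 were higher in KO, with a median of 0.50, and the authors' deposited table called 1 higher. Msh6, Bcl6 and Polh had log2 fold changes of 0.42, -0.28 and 0.80.

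Markers of other spleen cells were also higher or lower in KO, with 0 called by limma after adjustment. The authors' deposited table called 12 red cell genes and 1 macrophage gene higher, 1 T cell gene lower and 0 neutrophil genes. Red cell genes were higher in 13 of 13 (median log2 fold change 2.85, or 2.33 without WT453), and summed to 28044 to 82688 CPM in KO libraries and 2388 to 12584 CPM in WT libraries. Macrophage genes were higher in 14 of 14, with a median of 1.09, or 0.59 without WT453, and T cell genes lower in 15 of 15, with a median of -0.55, or -0.97 without WT453. Neutrophil genes were higher in 8 of 10, with a median of 0.49, or 1.70 without WT453. The part of these cells in the light chain shares of reads was not tested.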

How the data were processed

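Per the labels' protocols, an mRNA kit made the libraries from spleen RNA of Was knockout and wild-type mice, 3 libraries each. Named in the submitters' processing notes are the build GRCm38, STAR 2.5.3a, DESeq, StringTie 1.3.1c and FastQC 0.11.5. No source used here gives the counting step, the annotation or the strand. The deposited table covers 26452 genes and holds, beside each library's log2 value, the authors' own log2 fold change, p-value and FDR. How that p-value was made is not stated beyond DESeq. From the values, each deposited log2 value is log2(count divided by a size factor, plus 1): within a tolerance of 0.001, 100% of values came back as whole reads, which total 30661759 to 38402758 per library. The knockout columns carry a name suffix whose meaning is not stated.

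Limma 3.58.1 in R 4.3.3 with an intensity trend was run on the deposited values, with no covariate, over the 22071 genes with a mean normalized count of at least 1. Fold changes with a pseudocount of 1 understate those of low genes. Adjustment was by Benjamini-Hochberg at 0.05. Alternatives were a pseudocount of 0.1 or 10, a filter at 10 or none, CPM, quantile normalization, limma voom on recovered reads and each library left out in turn. Positions, sequences and lengths came from GENCODE M21, in which 26404 of 26452 identifiers were found. Ratios between segments and shares of Igkv, Iglv or Iglc RNA were per kilobase. Shares of reads, list sums and rankings by mean count were not scaled by length. Identity was from pairwise alignment with Biopython 1.88.

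The members and lists were chosen with earlier results of these data known. Named are all constant, joining and lambda segments, the 10 Igkv with the highest mean, the 5 with the largest positive and the 5 with the largest negative log2 fold change and the 3 with the smallest p among Igkv with a mean of at least 100, and up to 4 genes per list by level; 1 gene that this rule names is not reported here. Variable over constant ratios, lambda constant shares, per-kilobase scaling, families, blocks along the locus, strand, the limit of 4 times for a lone library, the sequences shown and the weight given to the values without WT453 were chosen after the values of the members had been seen.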

Additional observations from a re-analysis of the deposited data

How the results depend on the processing

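No paired analysis was run. The numbers in the library names are not shared between the groups, and what they mark is not stated. The count of members past the adjusted threshold was 0 under all 13 alternatives run. The count without overlap between groups, 16, ranged from 18 to 42 with each library left out, being 26 without KO452, 42 without WT453 and 26 without WT455; fewer libraries overlap less by construction. The Igkc log2 difference of 0.04 was -0.10 as CPM and -0.48 after quantile normalization, and -0.20 to 0.24 with each library left out. The median of all genes was -0.17 as CPM, against -0.03 on the deposited scale. The lambda to kappa difference, 5.32 percentage points for constant regions, was 437 points for joining segments, which have very few kappa reads; with each library left out it was 4.07 to 7.502. Under quantile normalization Iglc4 was 0.11, Igkj1 0.0311 and Iglj3 0.53. The cause of these changes was not tested.

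With each library left out, 12 named segments other than Igkc changed sign: Iglc3 (-0.47 to 0.0745), Iglv3 (-0.47 to 0.96), Iglc4 (-0.70 to 0.47), Iglj3 (-0.31 to 0.0123), Igkv1-117 (-0.32 to 1.16), Igkv10-96 (-1.05 to 0.67), Igkv1-110 (-0.61 to 0.74), Igkv5-39 (-0.30 to 1.25), Igkv8-30 (-0.28 to 0.87), Igkv1-135 (-0.72 to 1.07), Igkv15-103 (-0.43 to 0.84) and Igkv8-18 (-1.99 to 0.27). Of 241 values of named segments other than Igkc under other settings, 238 kept their direction. The KO minus WT difference was -0.19 to 0.35 percentage points for the kappa share of reads, 0.0528 to 0.101 for the lambda share, -9.40 to -0.57 for the effective number of Igkv and -1.68 to 7.26 for the largest share. Reads limit the joining segments, of which all but Iglj2 averaged fewer than 30 normalized counts in either group.

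The list medians kept their sign as CPM and under quantile normalization, except for light chain regulators, which were 0.01 on the deposited scale, -0.13 as CPM and -0.04 after quantile normalization. The heavy chain constant regions had 0.39 on the deposited scale and 0.03 after quantile normalization.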
